A study of Mus musculus with 20 samples.

Results

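Transcript levels of 10 heat shock genes were measured in mouse B cells and B cell lymphomas. The genes were a given list, matched by symbol to the Ensembl identifiers of the count table, and were 10 of the 37620 genes in it. All 10 passed the filter on low counts and were tested among 17824 genes. They comprise the stress-induced cytosolic chaperones Hspa1a and Hspa1b (Hsp70), Dnajb1 (Hsp40), Hsph1 (Hsp110) and Hsp90aa1 (inducible Hsp90), the constitutive Hspa8 (Hsc70) and Hsp90ab1, the Hsp70 gene Hspa1l, known as testis-enriched, and the mitochondrial pair Hspd1 (Hsp60) and Hspe1 (Hsp10).

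Heat shock proteins bind unfolded polypeptides and return them to a folded state or pass them on for degradation. On proteotoxic stress, heat shock factor 1 (HSF1) is released from chaperones, forms trimers and binds repeats of the unit GAA in the promoters of its targets, among which Hspa1a and Hspa1b respond within minutes from a low basal level. Hspa8 and Hsp90ab1 are made in unstressed cells throughout, and Hspd1 with Hspe1 forms the folding chamber of the mitochondrial matrix.

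Poly-adenylated RNA was sequenced from cells enriched on magnetic beads for B220, the CD45 form of B cells, all on the C57BL/6 background and taken from the animal without culture. The normal group was 4 samples of spleen with no transgene named. The vector group comprised 8 VavPBcl2 lymphomas that had received an empty vector, and the Myc group 8 VavPBcl2 lymphomas that had received Myc. In VavPBcl2 mice, Vav regulatory sequences drive the apoptosis inhibitor Bcl2 in blood cells of many lineages, so the transgene is not limited to B cells. Both lymphoma groups share the Bcl2 transgene and a transduction, and the normal group has neither, so these and the tumour state cannot be told apart. Ages are not given in the sources used here. Whether the samples of a group are separate animals is unlabelled. The p-values therefore cover the spread among samples, which may be technical, and sample numbers are names without a pairing.

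The samples held 28.7 to 56.3 M gene counts each (M for 1e+06). Myc was at a mean of 979 ± 409 CPM (counts per 1e+06 gene counts after scaling, SD, n = 8) in the Myc group and 118 ± 65.6 (SD, n = 8) in the vector group, with an adjusted p of 1.22e-06 in edgeR's quasi-likelihood test, and the labels hold by that gene. Bcl2 had a log2 fold change of -0.03 between the same groups (adjusted p = 0.895). Against normal it was at -0.05 in vector (adjusted p = 0.921) and at -0.08 in Myc (0.790). The counts of this gene thus do not show the transgene, and the Bcl2 label is not checked by them. B cell markers were found in all groups, but 7 of 8 B cell markers were lower in Myc than in vector, with summed levels of 5219 to 6274 CPM in normal, 4952 to 8797 in vector and 869 to 5559 in Myc samples. Natural killer cell markers (7 of 8 higher in Myc than in vector) summed to 173 to 266, 50.6 to 89.9 and 171 to 642 CPM, and neutrophil markers (5 of 8 higher) to 79.7 to 906, 55.0 to 5818 and 1657 to 16549.5 CPM in the same order. Erythroid markers, all 7 higher in vector than in normal, summed to 120.1 to 1786, 2141 to 10313 and 3295 to 49203 CPM. Plasmacytoid dendritic cell markers, 6 of 8 higher and 1 lower in Myc than in vector, summed to 758 to 869.7, 717 to 943 and 393 to 2043 CPM. Over all genes, 21.9% were called lower and 26.6% higher in Myc than in vector, and 7.46% higher in vector than in normal. No marker of these 5 lists was at 0 in every sample of a group. Within the earlier sequencing runs described below, edgeR called 4 B cell markers lower in Myc than in vector, where 4.4% of all genes were. There 3 natural killer, 3 plasmacytoid dendritic and 0 neutrophil markers were higher, where 2.97% of all genes were. In those runs 0 erythroid markers were higher in vector than in normal, against 0.621% of all genes. Both counts of 0 held at an unadjusted p under 0.05 too. The part of these cell types in the differences below was not tested. In bulk samples a smaller share of a cell type and less RNA per cell cannot be told apart.

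Earlier and later sequencing runs were inferred here from run numbers and instrument names in the labels, which give no dates and call nothing a batch. The later runs held vector 1 to 6 and normal 1, and the earlier runs held vector 7 and 8, normal 2 to 4 and all 8 Myc samples. The 13 mitochondrially encoded genes summed to 3114 to 7845 CPM in the later-run samples and to 43104 to 229634 CPM in the earlier-run samples, so the periods differ beyond the groups. Vector 7 and 8 also carry another title prefix than vector 1 to 6, so within the vector group run period and sample series cannot be told apart. For this reason each comparison is also given within the earlier runs, where the vector group has 2 samples, and with run period as a term in the fit.

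Among the 10 genes, the stress-induced Hsp70 genes and Hspa1l differed most. Hspa1a and Hspa1b lie 12918 bases apart on chromosome 17 and encode nearly the same protein. Hspa1a stood at 21.6, 19.5, 15.6 and 25.3 CPM in normal 1 to 4. In the vector lymphomas it was at 242, 459, 1161, 834, 1312 and 1028 CPM in vector 1 to 6, at 245 in vector 7 and at 19.2 in vector 8. In the Myc lymphomas it ranged from 0.399 to 6.40 CPM with a median of 2.32. Thus 7 of 8 vector samples were above every normal sample, vector 8 lay within the normal range, and every Myc sample was below every sample of both other groups. Hspa1a rose in vector over normal by a log2 fold change of 5.01 ± 0.92 (SE), adjusted p = 0.00138, or 32.3-fold. It fell in Myc against vector, with a log2 fold change of -7.82 ± 0.77 (SE), adjusted p = 1.61e-07, and fell in Myc against normal, with -2.81 ± 0.68 (SE), adjusted p = 0.00303, or 7.01-fold lower.

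Hspa1b followed the same order of groups. It was at 24.5, 13.5, 13.7 and 16.6 CPM in normal 1 to 4, and at 179, 329, 892, 710.3, 1148, 878, 162 and 7.57 CPM in vector 1 to 8. In the Myc group it ranged from 0.771 to 7.25 CPM with a median of 2.44. Vector 8 was below every normal sample, the other 7 vector samples were above all of them, and no Myc sample overlapped either group. Hspa1b rose in vector over normal (log2 fold change 4.98 ± 0.94 (SE), adjusted p = 0.00185) and fell in Myc against vector (-7.61 ± 0.78 (SE), adjusted p = 2.86e-07) and against normal (-2.63 ± 0.70 (SE), adjusted p = 0.00602). In the annotation used for names, 47.07% of 100-base windows of the Hspa1a transcript recur in Hspa1b, and 49.93% in the other direction, so reads can be lost or split between them and each gene's own level is uncertain. With their counts summed to 1 feature the log2 fold changes were -7.73, 5.00 and -2.73 for Myc versus vector, vector versus normal and Myc versus normal.

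Hspa1l starts 547 bases from the start of Hspa1a, on the opposite strand. It was at 3.66, 3.04, 2.55 and 3.59 CPM in normal samples, ranged from 2.40 to 154 CPM with a median of 83.6 in vector samples and was at no more than 0.995 CPM in Myc samples, where the libraries held 1 to 47 counts of it. Vector 8, at 2.40 CPM, was again the lowest of its group and just below the normal samples, and the Myc samples did not overlap the others. The log2 fold changes were 4.64 ± 0.82 (SE), adjusted p = 0.00108 in vector over normal, -7.43 ± 0.70 (SE), adjusted p = 1.12e-07 in Myc against vector and -2.79 ± 0.67 (SE), adjusted p = 0.00275 in Myc against normal. There were 7.94 to 9.24 Hspa1l reads per 100 reads of Hspa1a and Hspa1b in normal samples, 6.00 to 8.97 in vector samples and, on few counts, 2.27 to 24.4 in Myc samples, so the proportion differed little between normal and vector while the level changed. Of the 100-base windows of the Hspa1l transcript, 5.647% recur in Hspa1a, and 1778 of its 2472 exonic bases overlap the antisense gene Gm10501, so the Hspa1l counts are uncertain. Gm10501 itself rose in Myc over vector, with a log2 fold change of 2.00 ± 0.30 (SE) and an adjusted p of 2.69e-05.

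The promoter windows of these 3 genes are shown because they moved together, and that of Hsph1, another member lower in Myc, for contrast. Windows are RefSeq's on GRCm38.p6, from 250 bases before to 50 bases after each gene's start, 5′ to 3′ on the gene's strand. Of the 10 members, 7 matched an entry; Hspa8, Hsp90aa1 and Hsp90ab1 did not. Capitals mark pairs of heat shock units, GAANNTTC or TTCNNGAA, each of which reads the same on both strands, and neighbouring pairs may overlap. In the Hsph1 window they also mark 1 E-box, CACGTG, the motif known for binding by Myc with Max, which 7.149% of windows hold. Over 32817 windows of this length, 15.05% hold such a pair and 0.6033% hold a triple of alternating units.
Hspa1a (chr17:34972107-34972406, minus strand): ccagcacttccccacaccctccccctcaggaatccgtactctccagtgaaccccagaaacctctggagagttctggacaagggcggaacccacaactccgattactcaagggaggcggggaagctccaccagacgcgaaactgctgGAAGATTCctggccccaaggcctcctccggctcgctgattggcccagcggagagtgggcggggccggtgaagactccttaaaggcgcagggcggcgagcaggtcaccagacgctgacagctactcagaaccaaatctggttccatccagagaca
Hspa1b (chr17:34959189-34959488, minus strand): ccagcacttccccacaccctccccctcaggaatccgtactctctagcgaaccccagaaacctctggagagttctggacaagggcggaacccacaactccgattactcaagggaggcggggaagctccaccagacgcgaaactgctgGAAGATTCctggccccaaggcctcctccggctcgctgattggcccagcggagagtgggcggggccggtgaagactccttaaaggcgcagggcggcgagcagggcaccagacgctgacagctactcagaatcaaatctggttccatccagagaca
Hspa1l (chr17:34972453-34972752, plus strand): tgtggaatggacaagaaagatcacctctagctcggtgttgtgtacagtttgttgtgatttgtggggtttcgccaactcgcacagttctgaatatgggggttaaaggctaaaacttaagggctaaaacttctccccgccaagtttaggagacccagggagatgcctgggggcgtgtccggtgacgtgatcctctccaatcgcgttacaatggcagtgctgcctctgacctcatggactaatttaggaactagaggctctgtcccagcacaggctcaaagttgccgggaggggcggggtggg
Hsph1 (chr5:149636287-149636586, minus strand): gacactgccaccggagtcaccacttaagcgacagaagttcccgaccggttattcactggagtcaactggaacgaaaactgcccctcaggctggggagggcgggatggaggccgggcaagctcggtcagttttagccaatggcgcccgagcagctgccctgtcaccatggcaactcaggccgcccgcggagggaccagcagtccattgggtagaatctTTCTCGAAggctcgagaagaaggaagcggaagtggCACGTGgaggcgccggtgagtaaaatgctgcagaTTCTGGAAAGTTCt
The Hspa1a and Hspa1b windows each hold 1 pair, at the same place, starting at base 147 counted from the window's 5′ end. They differ at 4 of 300 positions, C44T, T47C, T249G and C276T, with the Hspa1a base first. The Hspa1l window holds no pair, and the Hsph1 window holds 3 pairs, which include 1 triple. Neither window of Dnajb1, also lower in Myc than in vector and not shown, holds a pair or an E-box. A window of Hspd1 holds 1 E-box. Hspd1 was not called between Myc and vector in the main fit, but was higher in Myc with run period as a term (1.10, adjusted p = 0.00464). The letters describe these windows only and do not show binding by HSF1.

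**Figure D1:**
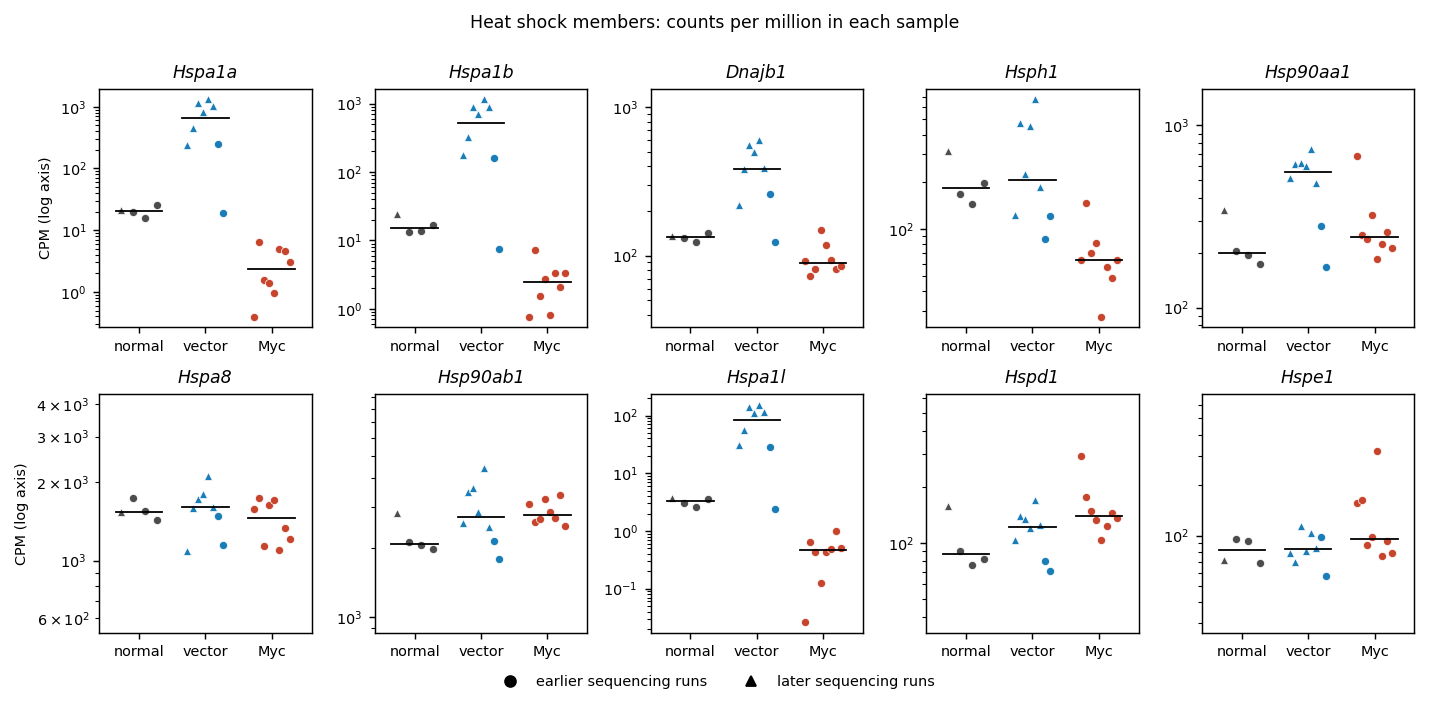
CPM of the 10 genes on log axes in normal, vector and Myc samples; each point is a sample, circles are earlier and triangles later sequencing runs, and black bars are group medians. For Hspa1a, Hspa1b and Hspa1l the 8 Myc samples lie below all others, and 1 vector sample of the earlier runs lies at or below the normal level.

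Of the 10 genes, 6 were lower in Myc than in vector (Hspa1a, Hspa1b, Hspa1l, Dnajb1, Hsph1 and Hsp90aa1), 1 was higher (Hspe1) and 3 did not pass. Over all genes tested, 21.9% were called lower and 26.6% higher in this comparison, so a call by itself is common here. For Hspa1a, Hspa1b and Hspa1l no sample overlapped between the groups, which was so for 6.38% of all genes in the lower direction, and the same 3 genes did not overlap between Myc and normal, as 14.3% of all genes did not in that direction. The median log2 fold change was -1.36 over the 10 genes and 0.08 over all genes. In vector against normal, 4 genes were higher (Hspa1a, Hspa1b, Hspa1l and Dnajb1) and 0 lower, against 7.46% and 3.36% of all genes, with a median of 0.82 against -0.03. In Myc against normal, 4 were lower (Hspa1a, Hspa1b, Hspa1l and Hsph1) and 0 higher, against 17.9% and 21.5% of all genes, with a median of -0.29 against 0.08. The vector samples enter both comparisons with vector and the normal samples those against normal, so they are not independent of each other. At an unadjusted p under 0.05 in the same edgeR test, 2 genes (Hspd1 and Hspe1) were higher in Myc than in normal and 0 lower in vector than in normal, and DESeq2 and limma-voom each called 0 in either case.

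**Figure D2:**
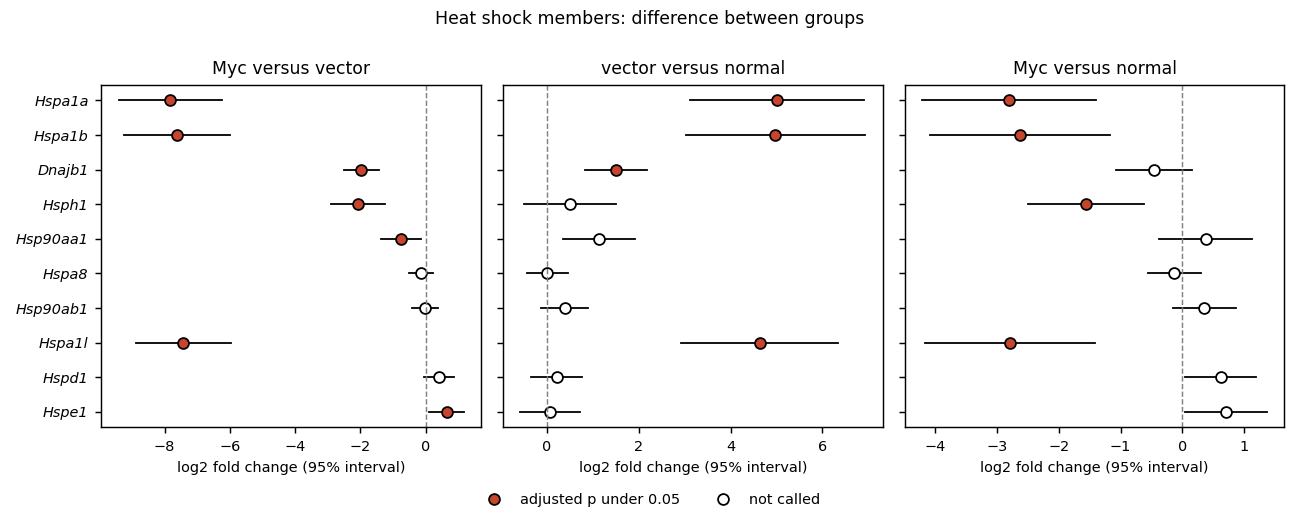
Log2 fold change of each gene (points) with its 95% interval (lines) in 3 comparisons; filled points had an adjusted p under 0.05 in edgeR's quasi-likelihood test. Hspa1a, Hspa1b and Hspa1l stand furthest from 0 in every panel, and the intervals of Hspa8 and Hsp90ab1 include 0 in every panel.

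Run period bears on how much of this stands. Within the earlier runs, 3 of the 6 genes lower in Myc than in vector were still called, against 4.4% of all genes lower and 2.97% higher, with log2 fold changes of -5.48 for Hspa1a (adjusted p = 5.88e-04), -4.93 for Hspa1b (9.70e-04) and -5.06 for Hspa1l (8.61e-04). Vector 7 and 8, the vector samples there, were at 245 and 19.2 CPM of Hspa1a, 162 and 7.57 of Hspa1b and 28.5 and 2.40 of Hspa1l. The size of these differences thus depends mostly on vector 7. Between vector and normal, none of the 4 genes was called by edgeR within the earlier runs (3 of the 10 members were higher at an unadjusted p under 0.05), where 2 vector samples face 3 normal samples and 0.621% of all genes were called higher. Hspa1a had a log2 fold change of 2.72 (adjusted p = 0.288). With run period as a term, where 4.86% of all genes were called higher, Hspa1a (3.58, adjusted p = 0.0194), Hspa1b (3.33, 0.0243) and Hspa1l (3.18, 0.0180) were called higher in vector than in normal and Dnajb1 was not (0.98, 0.0861). Normal 1, the normal sample of the later runs, was at 21.6 CPM of Hspa1a, within the range of the earlier-run normal samples, whereas all 6 later-run vector samples were at 242 CPM or more. For Hspa1b, Hspa1l, Hsph1, Hsp90aa1, Hsp90ab1 and Hspd1, however, normal 1 was above all 3 earlier-run normal samples. The 3 Hsp70 genes lower in Myc than in normal were called within the earlier runs too, where 7.97% of all genes were lower and 12.7% higher, with Hspa1a at -2.76 (adjusted p = 0.0115), Hspa1b at -2.38 (0.0213) and Hspa1l at -2.71 (0.0119).

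Dnajb1 supplies the J-domain that stimulates the Hsp70 ATPase and is itself induced by heat. It was at 135, 131, 124 and 142 CPM in normal 1 to 4, 221, 386, 554, 498, 601, 387, 259.9 and 124 CPM in vector 1 to 8, and ranged from 73.0 to 149 CPM with a median of 88.7 in the Myc group. Vector 8 was the one vector sample within reach of the other groups; the other 7 were above every normal and every Myc sample. Dnajb1 rose in vector over normal (1.51 ± 0.32 (SE), adjusted p = 0.00455, 2.85-fold) and fell in Myc against vector (-1.97 ± 0.25 (SE), adjusted p = 4.49e-06, 3.92-fold lower). The difference between Myc and normal did not pass (-0.46 ± 0.30 (SE), adjusted p = 0.220). Within the earlier runs the Myc to vector difference was -0.97 (adjusted p = 0.0572), no longer called, and with run period as a term -1.27 (0.00792).

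Hsph1 encodes Hsp110, which exchanges the nucleotide of Hsp70 and holds unfolded clients. It was at 315, 167, 144 and 197 CPM in the normal samples, 124, 471, 224, 452, 671, 186, 86.1 and 122 CPM in vector 1 to 8, and ranged from 27.6 to 147 CPM with a median of 63.3 in the Myc group. Its vector samples spanned the normal range on both sides, and 7 of 8 Myc samples were below every vector and normal sample, Myc 2 at 147 CPM being the exception. Hsph1 fell in Myc against vector (-2.07 ± 0.40 (SE), adjusted p = 3.12e-04) and against normal (-1.56 ± 0.45 (SE), adjusted p = 0.0102), and did not pass in vector against normal (0.51 ± 0.48 (SE), adjusted p = 0.560, 95% interval -0.49 to 1.502). The difference from normal was still called within the earlier runs (-1.25, adjusted p = 0.0218) and with run period as a term (-1.15, 0.0257). The difference from vector was called in neither (-0.57, 0.448, and -0.79, 0.255).

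Hsp90aa1 and Hsp90ab1 encode the inducible and the constitutive cytosolic Hsp90, the chaperone of kinases and steroid receptors. Hsp90aa1 was at 342, 204, 193 and 173 CPM in normal 1 to 4 and 513, 611, 618, 598, 738, 485, 281 and 168 CPM in vector 1 to 8. In the Myc group it was at 680.2 CPM in Myc 1 and at 184 to 323 CPM in the other 7. The 6 later-run vector samples were above every normal sample and above every Myc sample but Myc 1, and vector 7 and 8 lay among the Myc samples or below them. Hsp90aa1 fell in Myc against vector by the test (-0.76 ± 0.29 (SE), adjusted p = 0.0373), a call that was lost in 11 of 16 fits that left out 1 sample and turned to 0.43 within the earlier runs (adjusted p = 0.616). Between vector and normal it had a log2 fold change of 1.14 ± 0.38 (SE), adjusted p = 0.0556, which DESeq2 and limma-voom, among 4 of 11 alternatives, and 3 of 12 fits with a sample left out called higher, and in Myc against normal 0.38 ± 0.36 (SE), adjusted p = 0.418. Hsp90ab1 ranged from 1965 to 2824 CPM with a median of 2081 in normal, from 1791 to 4437 CPM with a median of 2706 in vector and from 2484 to 3394 CPM with a median of 2761 in Myc samples, and its groups overlapped. Its log2 fold changes were -0.02 ± 0.20 (SE), adjusted p = 0.935 in Myc against vector, with a 95% interval of -0.43 to 0.38, and 0.38 ± 0.24 (SE), adjusted p = 0.355 in vector against normal, with -0.12 to 0.89. Against normal, Myc samples had 0.36 ± 0.24 (SE), adjusted p = 0.239, which passed with run period as a term (0.53, adjusted p = 0.0433).

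Hspa8, the constitutive Hsp70 that also uncoats clathrin vesicles, kept overlapping ranges in all groups. It ranged from 1426 to 1735 CPM with a median of 1544 in normal, from 1092 to 2118 CPM with a median of 1606 in vector and from 1100.4 to 1737 CPM with a median of 1459 in Myc samples. The highest sample was vector 5 and the lowest vector 1, so that the vector group alone spanned all the others. The log2 fold changes were -0.14 ± 0.17 (SE), adjusted p = 0.531 in Myc against vector, 0.01 ± 0.21 (SE), adjusted p = 0.985 in vector against normal and -0.13 ± 0.21 (SE), adjusted p = 0.651 in Myc against normal, with 95% intervals of -0.49 to 0.22, -0.43 to 0.45 and -0.56 to 0.31. The bound furthest from 0 was thus -0.56, against differences past 2.6 in size for Hspa1a and Hspa1b in each comparison.

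The balance within each cytosolic pair was followed as a share of counts, which compares samples and not the abundance of one protein with another. Hspa1a and Hspa1b made up 1.85 to 2.92% of the counts of Hspa1a, Hspa1b and Hspa8 in normal samples (mean 2.37 ± 0.596, SD, n = 4). In vector 1 to 8 the shares were 27.8, 33.0, 54.3, 46.1, 53.7, 54.2, 21.5 and 2.28% (mean 36.6 ± 18.9, SD, n = 8), and in Myc samples 0.0739 to 0.779% (mean 0.408 ± 0.275, SD, n = 8). In 3 vector samples the inducible genes thus held more counts than Hspa8, in vector 8 they held a normal share, and all Myc samples were below all normal samples. Counting error was small beside this spread: the exact (Clopper-Pearson) 95% interval was 53.5 to 54.0% in vector 5 and 0.0537 to 0.0992% in Myc 1, and such intervals cover counting error only. Hsp90aa1 made up 8.08 to 10.8% of the counts of both Hsp90 genes in normal samples, 8.56 to 17.3% in vector samples and 6.08 to 18.1% in Myc samples. Later-run vector samples were all above every normal sample in that share, and Myc 1, at 18.1%, was the highest of all 20 while the other 7 Myc samples were at 9.02% or below.

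**Figure D3:**
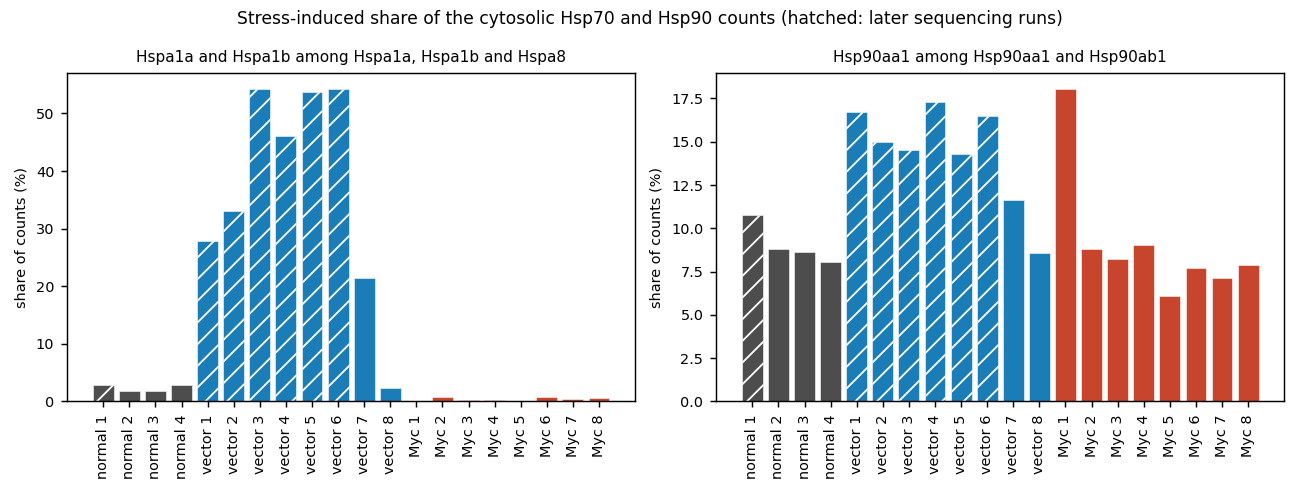
Share of counts (%) in each of the 20 samples for Hspa1a with Hspa1b among Hspa1a, Hspa1b and Hspa8 (left) and for Hsp90aa1 among both cytosolic Hsp90 genes (right). Hatched bars are later sequencing runs. The Hsp70 share reaches 54.3% in the vector group and stays at or below 0.779% in the Myc group.

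Hspd1 and Hspe1 are neighbours that share a promoter region and are transcribed in opposite directions, their starts 216 or 95 bases apart depending on the Hspd1 start. The Hspe1 window is shown because the shared region holds 3 unit pairs, including 2 triples, again in capitals.
Hspe1 (chr1:55087898-55088197, plus strand): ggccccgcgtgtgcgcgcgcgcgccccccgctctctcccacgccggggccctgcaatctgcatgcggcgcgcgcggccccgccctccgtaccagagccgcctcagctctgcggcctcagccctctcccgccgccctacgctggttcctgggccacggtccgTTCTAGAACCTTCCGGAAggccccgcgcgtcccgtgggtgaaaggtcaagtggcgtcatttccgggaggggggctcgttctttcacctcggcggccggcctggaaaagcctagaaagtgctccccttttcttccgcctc
This window overlaps 1 of the Hspd1 windows by 285 bases, so its matches lie in both. Neither gene passed in vector against normal. The log2 fold changes were 0.21 ± 0.27 (SE), adjusted p = 0.684 for Hspd1 and 0.07 ± 0.31 (SE), adjusted p = 0.924 for Hspe1, with 95% intervals of -0.35 to 0.77 and -0.58 to 0.71. Hspd1 was at 159, 91.02, 75.9 and 82.4 CPM in normal 1 to 4, ranged from 70.8 to 171 CPM with a median of 122 in vector samples and from 104 to 294 CPM with a median of 140.1 in Myc samples. The groups overlapped, with Myc 1 the highest of all. Its difference between Myc and vector did not pass (0.42 ± 0.22 (SE), adjusted p = 0.121) but passed with run period as a term (1.10, adjusted p = 0.00464), where 9.2% of all genes were called higher. The same held against normal (0.63 ± 0.28 (SE), adjusted p = 0.0757, and 0.90 with 0.00494, where 20.6% of all genes were called higher). Within the earlier runs Hspd1 was not called in Myc against vector (1.09, adjusted p = 0.0859). Against normal it was called higher there (0.96, adjusted p = 0.0384), where 12.7% of all genes were. Hspe1 ranged from 69.0 to 94.98 CPM with a median of 82.1 in normal, from 57.6 to 114 CPM with a median of 82.9 in vector and from 75.9 to 321 CPM with a median of 95.7 in Myc samples, with Myc 5 at 321 CPM far above the rest. Myc 5 also had the lowest TMM scaling factor of the 20 samples (0.676), the highest share of reads aligned to more than 1 place (40.3%) and the highest erythroid sum (49203 CPM), whose part in its Hspe1 level was not tested. Hspe1 rose in Myc over vector by the test (0.65 ± 0.26 (SE), adjusted p = 0.0414, 1.56-fold), but the groups overlapped and the call was lost in 8 of 16 fits that left out 1 sample and in 7 of 10 other settings; without Myc 5 the log2 fold change was 0.33 (adjusted p = 0.130). Hspd1 and Hspe1 overlap by 112 exonic bases on opposite strands, and whether reads were counted by strand is not stated.

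Some members varied together between samples of a group and others did not. Over the deviations of log2 CPM from the group means in 20 samples, Hspa1a had a Pearson r of 0.95 with Hspa1b, near-identical in sequence, and Hsp90aa1 one of 0.90 with Hspd1. Hspe1 had an r of 0.66 with Hspa8 (Spearman rho = 0.74), 0.33 with Dnajb1 and 0.098 with its neighbour Hspd1 (rho = 0.28). With the other members its r was 0.02 (Hspa1a), 0.09 (Hspa1b), -0.13 (Hsph1), 0.16 (Hsp90aa1), 0.20 (Hsp90ab1) and 0.16 (Hspa1l). Among the tested genes outside the list most like Hspa1b were Arc (r = 0.86, Spearman rho = 0.69) and Ankrd40 (0.84, 0.83). Those most like Hspa8 were Stip1 (0.89, 0.84), which bridges Hsp70 and Hsp90, Fkbp4 (0.87, 0.91), an Hsp90 cochaperone, and Inka2 (0.81, 0.79). For Hspd1 they were Hspa9 (0.92, 0.88), the mitochondrial Hsp70, Ctps (0.91, 0.91), a CTP synthase, and Cnpy4 (0.89, 0.88). These are descriptions without a test over samples that share libraries, run period and scaling.

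The wider chaperone network was read from 8 lists, of which 83 genes were tested. In Myc against vector 29 were higher and 17 lower, where 26.6% and 21.9% of all genes were. Within the earlier runs 2 were higher and 4 lower, where 2.97% and 4.4% of all genes were, and with run period as a term 19 and 7, where 9.2% and 9.77% of all genes were called. The cytosolic chaperonin CCT, which folds actin and tubulin, and its helper prefoldin had 11 of 14 genes higher and 0 lower (0 also at an unadjusted p under 0.05 in edgeR and in limma-voom, 1 by DESeq2), with a median log2 fold change of 0.61 against 0.08 over all genes. Examples were Cct2 (0.79 ± 0.13 (SE), adjusted p = 4.86e-05), Cct5 (0.98 ± 0.15 (SE), adjusted p = 3.95e-05) and Cct8 (0.68 ± 0.12 (SE), adjusted p = 1.14e-04). Of 13 mitochondrial chaperones and proteases, 7 were higher and 1 lower (median 0.36), among them Trap1, the mitochondrial Hsp90 (0.41 ± 0.10 (SE), adjusted p = 0.00226), Dnajc19 (1.64 ± 0.32 (SE), adjusted p = 3.09e-04) and Hscb, of iron-sulphur cluster assembly (1.11 ± 0.27 (SE), adjusted p = 0.00237). Within the earlier runs edgeR called 0 genes of either list higher, 6 of the CCT and prefoldin list and 5 of the mitochondrial list having an unadjusted p under 0.05, and with run period as a term 7 of the CCT and prefoldin list and 5 of the mitochondrial list were. Of the 3 mitochondrial genes named, Trap1 was called with that term (0.42, adjusted p = 0.0414) and Dnajc19 (1.01, 0.0602) and Hscb (0.73, 0.174) were not.

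Cytosolic cochaperones moved in both directions. The shares over all genes for the counts below were 21.9% lower and 26.6% higher in Myc than in vector. Of 17 J-domain proteins, 6 were lower and 1 higher in Myc than in vector (median -0.31), including Dnaja1, a major partner of Hspa8 (-1.503 ± 0.28 (SE), adjusted p = 2.47e-04), Dnajb5 (-1.53 ± 0.13 (SE), adjusted p = 3.62e-08) and Dnajb12, of the endoplasmic reticulum membrane (-0.40 ± 0.10 (SE), adjusted p = 0.00239). Within the earlier runs and with run period as a term 1 of the 17 was lower, where 4.4% and 9.77% of all genes were. That gene was Dnajb5 (-1.37, adjusted p = 0.00209, and -1.46, adjusted p = 1.12e-05), while Dnaja1 (-0.69, 0.195, and -0.95, 0.0910) and Dnajb12 (-0.26, 0.448, and -0.31, 0.123) were not called. Of 4 genes tested among heat shock factors and their regulators, Hsf1 (-0.68 ± 0.18 (SE), adjusted p = 0.00471) and Hsf2 (-1.02 ± 0.18 (SE), adjusted p = 1.58e-04) were lower. Hsf1 had -0.19 within the earlier runs (adjusted p = 0.729) and -0.29 with run period as a term (0.435), neither called, and Hsf2 -0.98 (0.0704) and -0.80 (0.0175), called with the term. Hsf1 did not pass in vector against normal (0.24 ± 0.23 (SE), adjusted p = 0.546). HSF1 activity is set after translation, so its transcript level is not a measure of it. Among 9 regulators of Hsp70, Bag1 (0.81 ± 0.19 (SE), adjusted p = 0.00141) and Bag2 (1.72 ± 0.29 (SE), adjusted p = 7.32e-05), both nucleotide exchange factors, were higher and Bag6 (-0.41 ± 0.13 (SE), adjusted p = 0.0169) was lower. Bag2 was called within the earlier runs (1.99, adjusted p = 0.00920) and with run period as a term (1.71, 0.0131), and Bag1 (0.76, 0.230, and 0.76, 0.0554) and Bag6 (0.0034, 0.995, and -0.07, 0.795) in neither. Of 17 Hsp90 cochaperones 6 were higher and 4 lower, shares near the 26.6% and 21.9% of all genes, such as Unc45a (-1.02 ± 0.15 (SE), adjusted p = 2.39e-05), the Hsp70 and Hsp90 adaptor Tomm34 (-0.67 ± 0.13 (SE), adjusted p = 2.69e-04) and Aarsd1 (0.85 ± 0.18 (SE), adjusted p = 6.33e-04). Within the earlier runs edgeR called 0 of the 17, with 3 higher and 2 lower at an unadjusted p under 0.05, and Unc45a was at -0.61 there (adjusted p = 0.101) and at -0.60 with run period as a term (0.0183).

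Of the same 83 genes, 5 were higher and 3 lower in vector than in normal, where 7.46% and 3.36% of all genes were, and 29 were higher and 14 lower in Myc than in normal, where 21.5% and 17.9% were. Hspb1, the small heat shock protein Hsp27, was at means of 0.327, 3.39 and 1.37 CPM in normal, vector and Myc samples. It rose in vector over normal (3.37 ± 0.54 (SE), adjusted p = 4.30e-04) and fell in Myc against vector (-1.31 ± 0.37 (SE), adjusted p = 0.00679), and Hspa2, another Hsp70 gene known from testis, did likewise (1.34 ± 0.26 (SE), adjusted p = 0.00226, and -1.96 ± 0.21 (SE), adjusted p = 4.35e-07). The fall of Hspb1 was not called within the earlier runs (-0.58, adjusted p = 0.630) or with run period as a term (-0.80, 0.308), and its rise over normal was called with the term (adjusted p = 0.00303) and not within the earlier runs (2.64, 0.152). For Hspa2 the fall was called within the earlier runs (-2.06, 0.00155) and with the term (-2.09, 2.10e-05), and the rise with the term (1.43, 0.00465) and not within the earlier runs (1.42, 0.143). Of 6 further Hsp70 and Hsp110 genes tested, 2 were lower in Myc than in vector, Hspa2 and Hspa12a (-2.67 ± 0.39 (SE), adjusted p = 1.89e-05), and 1 was higher, Hspa12b. Over all genes 21.9% were lower and 26.6% higher in that comparison. Hspa12b passed the filter through the Myc group alone, with means of 0.155, 0.109 and 3.29 CPM in normal, vector and Myc samples, and its call supports nothing. Hspb6 was higher (1.01 ± 0.21 (SE), adjusted p = 6.81e-04) but not within the earlier runs (0.70, adjusted p = 0.231) or with run period as a term (0.50, 0.209), and 6 of 9 small heat shock genes had too few counts to be tested. In the CCT and mitochondrial lists edgeR, DESeq2 and limma-voom called 0 genes in vector against normal, and 1 mitochondrial gene had an unadjusted p under 0.05 in edgeR.

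**Figure D4:**
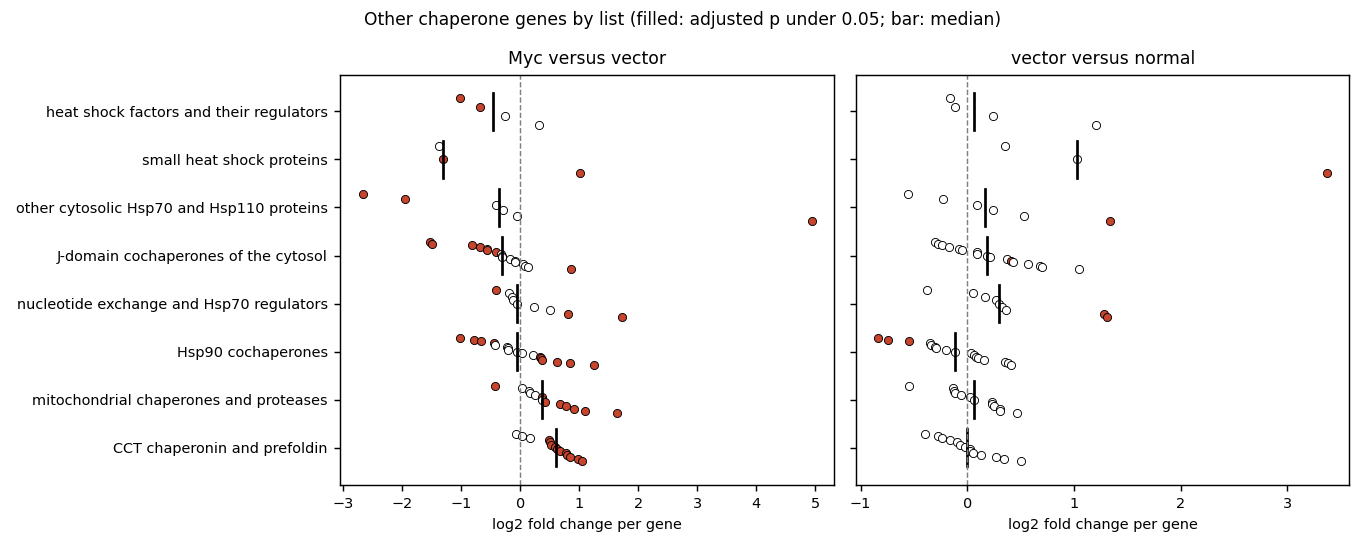
Log2 fold change of each tested gene of 8 chaperone lists in Myc versus vector (left) and vector versus normal (right); filled points had an adjusted p under 0.05 and bars are list medians. On the left the CCT and prefoldin list lies mostly above 0 (median 0.61) and the J-domain list mostly below (median -0.31).

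Immediate-early genes, which answer to handling and dissociation of tissue as well as to signals, differed in the same comparisons. Of 15 such genes (Fos, Jun, Egr1 and others), 14 were lower in Myc than in vector, against 21.9% of all genes, 4 were within the earlier runs, against 4.4%, and 5 were higher in vector than in normal, against 7.46%. Within the earlier runs edgeR called 0 of them higher in vector than in normal, against 0.621% of all genes. There 3 were higher at an unadjusted p under 0.05. The 15 genes summed to 2780.1, 3168, 1805 and 6641 CPM in normal 1 to 4, to 7289, 18072, 7378, 12355, 14607, 4844, 2969.7 and 12144 CPM in vector 1 to 8, and to 689.9 to 4204 CPM in Myc samples. The order of single samples differed from that of Hspa1a: vector 8 had a high immediate-early sum and Hspa1a at the normal level, and vector 7 had an immediate-early sum within the normal range and Hspa1a at 245 CPM. The part of sample handling in the heat shock differences was not tested.

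**Figure D5:**
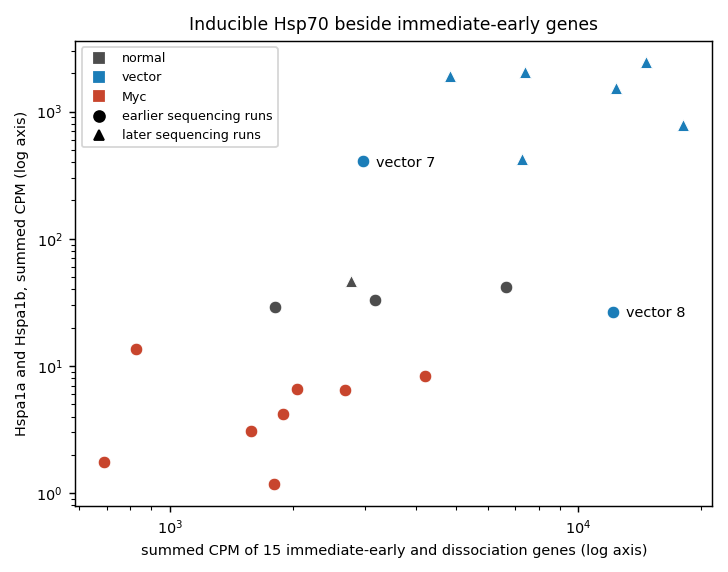
Summed CPM of Hspa1a and Hspa1b against the summed CPM of 15 immediate-early and dissociation genes in each sample, both on log axes; circles are earlier and triangles later sequencing runs. The Myc samples lie below all others for Hspa1a and Hspa1b and overlap the normal samples and vector 7 on the immediate-early axis. Vector 7 and vector 8 part from each other on both axes.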

How the data were processed

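The deposited values are raw counts per Ensembl gene and sample from poly-adenylated RNA sequenced on an Ion Proton, per the labels' protocols. Builds mm9 and NCBIM37 are listed in the submitters' processing notes beside the tools HTSeq, Picard 1.119 and BWA 0.7.5a, without the step each served. Reads aligned to more than 1 place, 14.3 to 40.3% of those listed, have a line of their own with 4 other lines of reads of no gene, and all 5 stayed out of library sizes and tests. Symbols came from GENCODE vM21 and promoter windows from RefSeq, on GRCm38, so no gene coordinate of the files' own build is given.

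The counts were filtered with filterByExpr by group, scaled by TMM and tested two-sided by quasi-likelihood F tests of edgeR 4.0.16 (R 4.3.3) in 1 fit of 20 samples and 3 groups. Benjamini-Hochberg adjustment ran over all 17824 genes, and an adjusted p under 0.05 was called. CPM use TMM-scaled library sizes, and log2 CPM a prior count of 2. The fits were tested on simulated data. Alternatives were RLE, upper quartile and library size scaling, DESeq2 1.42.0, limma 3.58.1 (voom), no filter, only the 2 groups compared, earlier runs only, run period as a term, each sample left out, Hspa1a and Hspa1b summed and, chosen after seeing the data, later runs only and the vector group without samples 7 and 8.

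Named genes are the 10 members, Myc, Bcl2, up to 3 genes of each list with the smallest p in Myc against vector, and the 3 genes most correlated with each of Hspa1b, Hspa8 and Hspd1; Gm10501 was named as an antisense neighbour. A gene that the rule names is not reported here. Members and lists were chosen with earlier results of these data known. Of 184 list members, 1 (Hspa14) was not found by name.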

Additional observations from a re-analysis of the deposited data

Results flagged for a closer look

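In 8 of 39 groups of values 1 sample lay far from the others by Dixon's rule. That rule flags about 1 in 20 groups only for independent, normally distributed values. The groups are raw CPM and shares, some from the same counts, so 8 of 39 cannot be set against that rate. Myc 1 was at 680.2 CPM of Hsp90aa1, with the next Myc sample at 323, and at 294 CPM of Hspd1, with the next at 176. The same sample had an Hsp90aa1 share of 18.1% of both Hsp90 genes, with the next at 9.02%, and the lowest Hspa1a of all samples at 0.399 CPM. Myc 2 was at 7.25 CPM of Hspa1b, with the next Myc sample at 3.37, and at 147 CPM of Hsph1, with the next at 80.9. Myc 5 was at 321 CPM of Hspe1, with the next at 162, and its Hspe1 share of the counts of Hspe1 and Hspd1 was 75.5%, with the next at 48.0%. That sample had the lowest TMM scaling factor of the 20 (0.676), the highest share of reads aligned to more than 1 place (40.3%) and the highest erythroid sum (49203 CPM), and their part was not tested. Normal 1, the normal sample of the later runs, was at 2824 CPM of Hsp90ab1, with the next normal sample at 2109.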

How the results depend on the processing

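Of 706 member values under alternatives, 625 kept their direction and their side of the threshold, 38 lost a call, 13 gained one and 30 turned direction. Hspa1a, Hspa1b and Hspa1l stayed called in Myc against vector under every alternative run, and in vector against normal under every one but earlier runs only. No paired analysis was possible because the replicate numbers follow accession order and only name the samples. Causes of the shifts below were not tested.

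Of the members in Myc against vector, 1 was called higher, and 0 with library size scaling, limma-voom, no filter, the 2 groups alone, earlier runs or later-run vector samples (0 to 1 with a sample left out). 6 were called lower, and 3 in earlier runs. With the run term Hsph1 and Hsp90aa1 were no longer called lower. Vector against normal had 4 higher, and 0 in earlier runs. In Myc against normal 0 were higher, 1 in earlier runs and 2 with run period as a term (0 to 1 with a sample left out). In that comparison 4 were lower, and 3 with limma-voom, where Hspa1l was lost (adjusted p = 0.107). With a sample left out 3 to 4 were lower, Hsph1 being lost in 1 of 12 fits (adjusted p = 0.0642).

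Of the 8 lists in Myc against vector, 29 genes were higher (2 in earlier runs, 19 with the run term) and 17 lower (4 and 7). In vector against normal, 5 were higher (3 with library size scaling, 10 with the 2 groups alone, 0 in earlier runs, 2 with the run term, 1 in later runs, 8 with later-run vector samples, 2 to 5 with a sample left out) and 3 lower (0 without a filter, 5 with the 2 groups alone, 0 in earlier runs, 1 with the run term, 0 with later-run vector samples, 0 to 2 with a sample left out). In Myc against normal, 29 were higher (16 with library size scaling, 17 in earlier runs, 19 to 31 with a sample left out) and 14 lower (9 with the 2 groups alone, 6 in earlier runs, 7 to 16 with a sample left out).

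Without later-run samples the vector mean share was 11.9% in place of 36.6% for inducible Hsp70, 10.1% in place of 14.3% for Hsp90aa1 and 49.9% in place of 42.6% for Hspe1 of Hspe1 and Hspd1.

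Signs turned for these log2 fold changes, of which only Hsp90aa1 had been called. In Myc against vector, Hsp90aa1 was 0.43 in earlier runs and 0.26 with the run term, Hspa8 0.13 and 0.027, and Hsp90ab1 0.56 and 0.49, as well as 0.059 with upper quartile scaling, 0.020 with limma-voom and -0.10 to 0.090 with a sample left out. In vector against normal, Hsph1 was -0.69 in earlier runs and -0.36 with the run term, Hsp90ab1 -0.042 in earlier runs, and Hspd1 -0.13, -0.19 and, in later runs, -0.24. Hspa8 was -0.14 with library size scaling, -0.04 with upper quartile scaling, -0.017 with limma-voom, -0.24 in earlier runs, -0.10 with the run term and -0.062 to 0.10 with a sample left out. Hspe1 was -0.085 with library size scaling, -0.13 in earlier runs and -0.0028 to 0.18 with a sample left out.

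Library size scaling moved the median of all genes by -0.15 in vector against normal and -0.19 in Myc against normal. Calls over all genes fell from 4747 higher and 3907 lower to 549 and 814 in Myc against vector within earlier runs and to 1640 and 1742 with the run term. Vector against normal went from 1329 and 599 to 115 and 8 in earlier runs, 867 and 358 with the run term, 597 and 221 in later runs 2129 and 1374 with the 2 groups alone, 1254 lower with later-run vector samples, and 801 to 1375 higher and 288 to 772 lower with a sample left out. In Myc against normal they went from 3831 and 3194 to 2345 and 1475 in earlier runs, and to 2020 to 3464 lower with a sample left out. With 4 normal and, in earlier runs, 2 vector samples, the number of samples limits these comparisons.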
